A study of Mus musculus with 24 samples.

Results

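APC-Alexa Fluor 750 high and low haematopoietic stem cells (HSCs) are the 570 cells at the ends of a fluorescence channel, of 1430 index-sorted cells in all. In each of 4 sort plates the 20% of cells with the highest reading of the dye APC-Alexa Fluor 750 were taken as high, and the 20% with the lowest reading as low. This gave 285 high cells (71, 69, 72 and 73 in plates 2, 3, 4 and 5) and 285 low cells (the same numbers per plate), while 850 cells between them were taken as middle. The 10 cells with the group number 1 in the sort record were left out. Depending on the plate, the high cells read at least 532 to 545 on the instrument's channel scale, and the low cells at most 468 to 478. The median readings were 543 to 562 in high cells and 454 to 467 in low cells. The antibody that carried the dye has no name in the sources used here, so the channel is called by its dye.

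All cells were sorted from mouse bone marrow by the same gate, LSK (without lineage markers, with Sca-1 and Kit), positive for CD150 and negative for CD48, from 1 strain, named -60/DR5-TA-RA-CFP, which carries a cyan fluorescent protein (CFP) reporter. No treatment is given. High and low cells thus differ by no genotype, agent or age that the labels name. They were chosen by the dye reading, and other recorded readings moved with it, as given below. Unique molecular identifiers (UMIs, tags that count RNA molecules once) were measured per gene and well. The table pools 8 single-cell samples, and nothing ties a well to one of them, so cells of 1 animal may lie in several plates. The 4 plates are technical replicates (n = 4), the p-values measure only the spread between plates and over genes, and under a stricter reading the table is 1 sample without a test.

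HSCs renew themselves and give rise to all blood cells, and most of them rest outside the cell cycle at any time. A cell that enters the cycle makes DNA replication proteins and histones in S phase, then spindle and chromosome proteins in G2 and mitosis, so sets of such transcripts read out cycling. Genes held at high levels in resting HSCs include Procr (the endothelial protein C receptor), Hlf and Mecom (transcription factors of stem cell maintenance). Mouse HSCs can also carry major histocompatibility complex (MHC) class II proteins, which present peptides, and Ifitm proteins, which block the entry of viruses and respond to interferon.

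The promoters of 3 mitotic genes that were higher in high cells, and of Ifitm1, which was lower, are shown because members of the G2/M list rose together. Each runs 5′ to 3′ from 250 bases before to 50 bases after the gene's start, from RefSeq on build GRCm38.p6. Capitals mark TTTGAA and TTCGAA, the core of the element that cell cycle genes share, and CCAAT, on either strand, and neighbouring matches may overlap. Ube2c lies at chr2:164769679-164769978 on the plus strand, Top2a at chr11:99024140-99024439 on the minus strand, Cdca3 at chr6:124829926-124830225 on the plus strand and Ifitm1 at chr7:140967826-140968125 on the plus strand.
Ube2c: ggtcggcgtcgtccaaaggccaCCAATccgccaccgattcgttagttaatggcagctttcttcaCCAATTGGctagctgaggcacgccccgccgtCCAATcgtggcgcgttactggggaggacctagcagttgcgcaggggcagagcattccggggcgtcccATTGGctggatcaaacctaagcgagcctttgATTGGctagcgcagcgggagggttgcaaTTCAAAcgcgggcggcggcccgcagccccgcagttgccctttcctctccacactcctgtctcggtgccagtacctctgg
Top2a: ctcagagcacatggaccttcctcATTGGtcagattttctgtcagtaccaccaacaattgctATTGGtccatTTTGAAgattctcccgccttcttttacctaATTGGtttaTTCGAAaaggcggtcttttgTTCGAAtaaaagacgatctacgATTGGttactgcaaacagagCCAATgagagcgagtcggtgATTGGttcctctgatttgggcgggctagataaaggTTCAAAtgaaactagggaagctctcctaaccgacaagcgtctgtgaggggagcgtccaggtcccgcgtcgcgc
Cdca3: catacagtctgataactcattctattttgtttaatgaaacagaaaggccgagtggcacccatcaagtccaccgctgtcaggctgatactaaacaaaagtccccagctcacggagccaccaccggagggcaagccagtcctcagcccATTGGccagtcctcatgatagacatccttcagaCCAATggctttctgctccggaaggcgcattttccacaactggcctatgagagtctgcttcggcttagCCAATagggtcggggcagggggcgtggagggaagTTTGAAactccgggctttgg
Ifitm1: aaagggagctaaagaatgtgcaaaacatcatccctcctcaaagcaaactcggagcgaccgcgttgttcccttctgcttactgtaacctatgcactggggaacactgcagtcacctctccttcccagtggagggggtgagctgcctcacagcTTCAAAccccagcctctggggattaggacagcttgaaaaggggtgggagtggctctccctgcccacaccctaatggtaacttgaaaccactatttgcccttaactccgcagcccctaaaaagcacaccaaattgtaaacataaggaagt

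TTTGAA was found in 16 of the 21 promoters matched for the 22 G2/M list genes that rose in high cells (76.19%), and CCAAT in 17 of 21 (80.95%). Of the 19 promoters matched for S phase list genes that rose, 4 held TTTGAA (21.05%) and 11 held CCAAT (57.89%). Among all genes tested, 415 of 2905 matched promoters held TTTGAA (14.29%) and 1206 held CCAAT (41.51%). Over the 27025 promoters of the whole table the shares were 20.23% and 41.06%. The variant TTCGAA stood in 1 of the 21 G2/M promoters, that of Top2a, against 75 of the 2905 promoters of all genes tested (2.582%). Of all genes that rose, 56 of 169 matched promoters held TTTGAA (33.14%) and 98 held CCAAT (57.99%). Of the genes that fell, 28 of 153 promoters held TTTGAA (18.3%), and the Ifitm1 promoter was one of them with 1 match. No share was counted for G2/M list genes that did not rise. The G2/M shares therefore cannot be told apart from a trait of the list itself. These are matches of letters in a window, not sites of binding.

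The high libraries held 124305 to 160654 UMIs and the low libraries 78356 to 92623 UMIs, so the low libraries were the shallowest. The 4 middle libraries held 277564 to 310102 UMIs. Plate 2 stood apart from the others when the 3 sides of each plate were summed. Over whole plates, 45 of the 3536 genes tested lay more than 8-fold below every other plate there, and 0 did so in plates 3, 4 and 5. Eef1a1, an elongation factor of every cell, had 204 CPM (counts per 1000000 UMIs of a library) in plate 2 against 4691 to 6212 in the other plates. Across genes, which are not independent replicates, log2 levels correlated at 0.778 to 0.790 between plate 2 and another plate, and at 0.942 to 0.955 among plates 3, 4 and 5. Since each comparison was made within plates, results are given with and without plate 2 where it changes them. No well ID occurred more than once.

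Of the gate's genes, Kit alone passed the filter on low counts. Kit, the receptor for stem cell factor, had 442, 186, 199 and 380 CPM in high cells of plates 2 to 5, against 459, 216, 484 and 353 in low cells. These ranges overlapped, and the log2 fold change of -0.38 ± 0.19 (SE) did not pass (adjusted p = 0.19). Ly6a, which encodes Sca-1, gave 5, 6, 1 and 0 UMIs in the high libraries against 7, 16, 3 and 3 in the low ones, too few to pass that filter. In the fits that did test it Ly6a fell, with a log2 fold change of -1.89 ± 0.58 without plate 4 (adjusted p = 0.019), -1.73 ± 0.57 without plate 5 (0.044) and -1.82 ± 0.51 with no filter (0.019). Summed, that was 12 of 560308 UMIs in high cells (21.4 CPM, 95% exact Poisson interval 11.1 to 37.4) and 29 of 347726 UMIs in low cells (83.4 CPM, 55.9 to 120). The Ly6a level in CPM was lower in high cells in 4 of 4 plates. These intervals cover counting error only. Slamf1, which encodes CD150, gave 15 UMIs in high cells (26.8 CPM, interval of the same kind 15.0 to 44.2). In low cells it gave 9 UMIs (25.9 CPM, 11.8 to 49.1), so its levels were alike. Cd48 gave 0 in both, which allows up to 5.35 CPM in high and 8.63 CPM in low cells (3 UMIs over the group).

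Markers of other blood cells ranged from absent to well detected. Of 8 mast cell and basophil markers, 7 were at 0 in high and low cells, and their summed level was 0 to 6.22 CPM in high libraries and 0 in the low ones. Of the B, T and NK cell markers, 7 of the 9 in the table, with Cd3e, were at 0, with summed levels of 48.3 to 157 in high and 64.8 to 166 in low libraries. The neutrophil and monocyte list summed to 48.3 to 408 CPM in high and 102 to 501 CPM in low libraries, most of it from the lysozyme entry Lyz1;Lyz2 (-0.42 ± 0.19, adjusted p = 0.15), which was low in plate 2 on both sides. The myeloid progenitor list summed to 4035 to 5089 CPM in high and 4237 to 4653 CPM in low libraries. The erythroid list summed to 3403 to 4865 CPM in high and 3510 to 4437 CPM in low libraries. Most of that came from Car2, a carbonic anhydrase, at 2148 to 3262 CPM in high and 1978 to 3174 CPM in low cells. The haemoglobin gene Hbb-b1 had 129 to 311 CPM in high and 135 to 434 CPM in low cells. Of the 7 erythroid genes tested, 0 passed in either direction by edgeR. The part of these markers in the results was not tested.

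Most cell cycle genes tested were higher in the high cells, and 10 of 18 stem cell genes, 3 of 6 MHC class II genes and 2 of 3 Ifitm genes were lower. In edgeR's quasi-likelihood test with the plate as a block, 390 of 3536 genes tested passed an adjusted p of 0.05, which is 11.0%. Of these, 200 (5.66%) were higher in high cells and 190 (5.37%) were lower. The test found 798 genes at an unadjusted p under 0.05. Of the 390 genes, 339 had the same sign in all 4 plates, against 928 of all 3536. The 390 were called from these same plates, and the test favours genes whose plates agree, so this agreement is partly built in. Without plate 2, 310 genes passed, 278 of them among the 390. Counting only genes on neither the S phase list nor the G2/M list, 155 rose and 190 fell. The 155 still include genes described below under S phase or mitosis, among them Hist1h1b, Spc24 and Fam64a, which neither list holds.

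**Figure D1:**
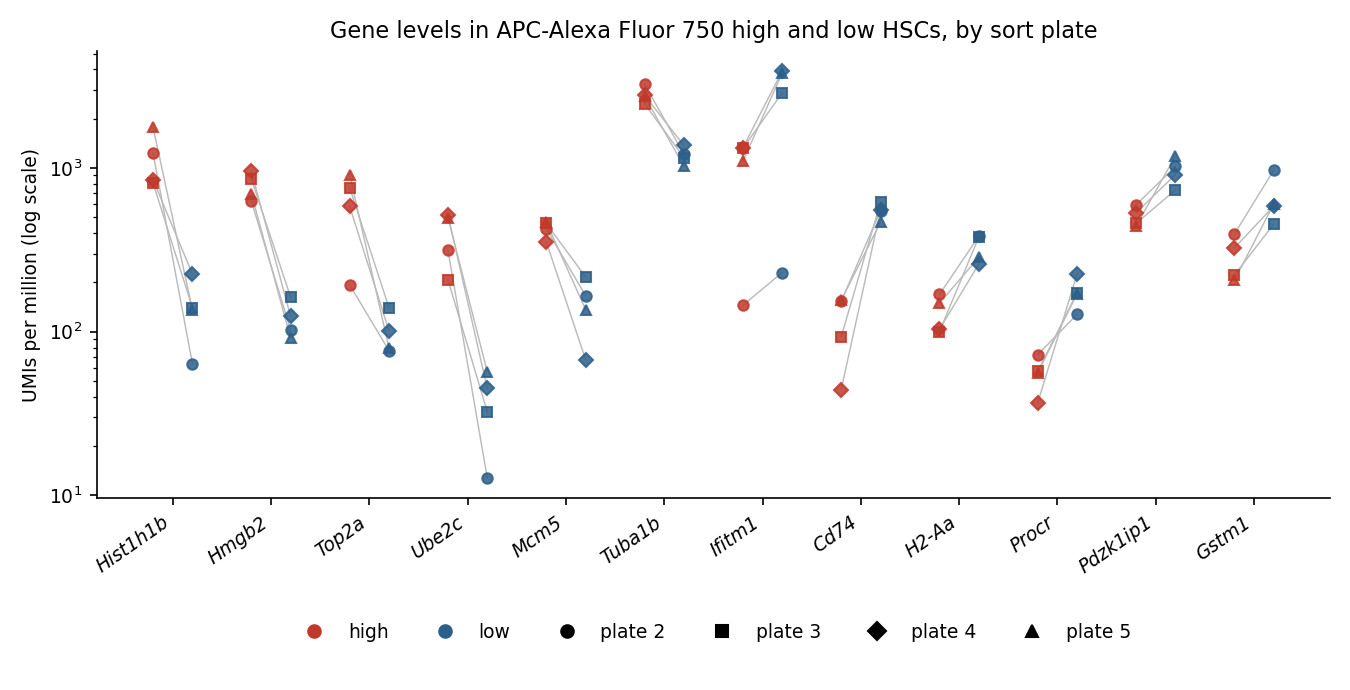
Levels of 12 genes in CPM (log scale) in high (red, left) and low (blue, right) HSCs, with 1 symbol per sort plate and lines that join a plate's sides. The 6 genes on the left were higher in high cells in every plate and the 6 on the right lower, and the Ifitm1 points of plate 2 lie far below those of the other plates on both sides.

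Most genes of mitosis that could be tested were higher in high cells. Of the 58 genes of the G2/M list, 27 passed the filter on low counts, which a gene can pass through the libraries of 1 side alone. Of these 27, 22 rose and 0 fell, and their median log2 fold change was 2.13, beside -0.01 over all genes tested. Ube2c, the ubiquitin-conjugating enzyme that helps end mitosis, had 314, 207, 516 and 498 CPM in high cells of plates 2 to 5, against 12.8, 32.4, 45 and 56.9 in low cells. Every high library lay above every low one, and the log2 fold change was 3.3 ± 0.32 (SE, adjusted p = 7.9e-21). Ube2c was so low in low cells that it can pass the filter through other libraries alone. Its rise and lack of overlap are thus partly set by the filter. Top2a, the topoisomerase that untangles chromosomes, had 193, 758, 583 and 909 CPM in high cells, against 76.6, 140, 101 and 79.6 in low cells. Its plate 2 value was the lowest of the high ones and still above all low ones, with a log2 fold change of 2.58 ± 0.22. The chromatin protein gene Hmgb2 had 627 to 951 CPM in high cells, against 91.0 to 162 in low cells (2.66 ± 0.20).

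Other genes of the spindle and the kinetochore, where chromosomes attach to it, moved the same way. Cenpf, a kinetochore protein gene, averaged 168 ± 35.2 CPM in high and 11.5 ± 0.847 in low cells (SD, n = 4 plates), a log2 fold change of 3.74 ± 0.54. Each low library held only the smallest count above 0 (10.8 to 12.8 CPM). The low SD thus reflects library sizes and not the spread of the gene, and the fold change is imprecise. Spc24, of the kinetochore's microtubule-binding complex, averaged 317 ± 60.3 in high and 34.9 ± 14.5 in low cells (3.12 ± 0.34). The spindle motor Kif11 rose by 2.97 ± 0.43 and Cdca3, a trigger of mitotic entry, by 2.96 ± 0.38 on the log2 scale. Tacc3, which stabilises spindle fibres, rose by 2.65 ± 0.49, and its sides overlapped because plate 2 held 40.2 in high cells while plate 4 held 56.3 in low cells. The abundant tubulin genes Tuba1b (1.195 ± 0.09) and Tubb5 (1.03 ± 0.10) rose by less. Fam64a, a gene of the passage from metaphase to anaphase, averaged 119 ± 15.0 in high and 2.70 ± 5.40 in low cells, where 3 of 4 libraries were at 0, so its log2 fold change of 5.04 ± 0.82 depends on the small prior count.

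Genes of DNA replication rose as well. Of the 48 genes of the S phase list, 30 passed the filter, 23 rose and 0 fell, and the median log2 fold change was 1.09. Leaving out 1 plate at a time gave 17 to 21 genes that rose, with 20 of 32 without plate 2. Tk1, the thymidine kinase, had 290, 472, 354 and 317 CPM in high cells, against 38.3, 54.0, 78.8 and 11.4 in low cells. No low library reached a high one, and the log2 fold change was 2.91 ± 0.30. Being this low in low cells, Tk1 can pass the filter through other libraries alone, which partly sets its rise and lack of overlap. Mcm5, a subunit of the replicative helicase, had 426, 458, 354 and 467 CPM in high cells, against 166, 216, 67.5 and 137 in low cells (1.502 ± 0.22). Dut, which keeps uracil out of DNA, averaged 500 ± 20.4 in high and 206 ± 50.3 in low cells (1.25 ± 0.19). Dnmt1, which copies DNA methylation, averaged 568 ± 102 in high and 254 ± 33.8 in low cells (1.12 ± 0.18).

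Histone genes, whose transcripts build up in S phase, were among the genes with the highest fold changes. The linker histone gene Hist1h1b had 1231, 809, 848 and 1774 CPM in high cells, against 63.8, 140, 225 and 137 in low cells. The sides were apart in every plate, with a log2 fold change of 2.97 ± 0.18 (adjusted p = 1.1e-51). The core histone genes Hist1h3b (4.53 ± 0.67) and Hist1h2an (3.97 ± 0.61) had 0 to 11.3 and 0 to 22.8 CPM in low cells, so their fold changes are less precise. Genes so low in low cells can pass the filter on low counts through the high libraries alone. The core histone genes belong to families of near-identical copies between which reads may be split.

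The high cells also held more RNA molecules. The median cell had 1644 ± 119 UMIs in high and 1111 ± 113 UMIs in low cells (SD of plate medians, n = 4), and the difference was positive in 4 of 4 plates, from 372 to 677. With each cell thinned to 1000 UMIs, 2.13 ± 0.146% of UMIs came from the S phase and G2/M lists in high cells, against 0.893 ± 0.0558% in low cells (233 and 172 cells). The 52 high and 113 low cells with fewer UMIs were left out. Thinned to 500 UMIs, which kept every cell, the shares were 1.89 ± 0.0913% in high and 0.832 ± 0.0466% in low cells. At 1000 UMIs the share was higher in high cells by 1.13 to 1.37 percentage points in every plate (exact two-sided sign-flip permutation p = 0.13, the smallest that 4 plates allow). In the gene test with channel readings corrected for UMIs per cell, 228 genes passed, 122 higher and 106 lower.

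**Figure D2:**
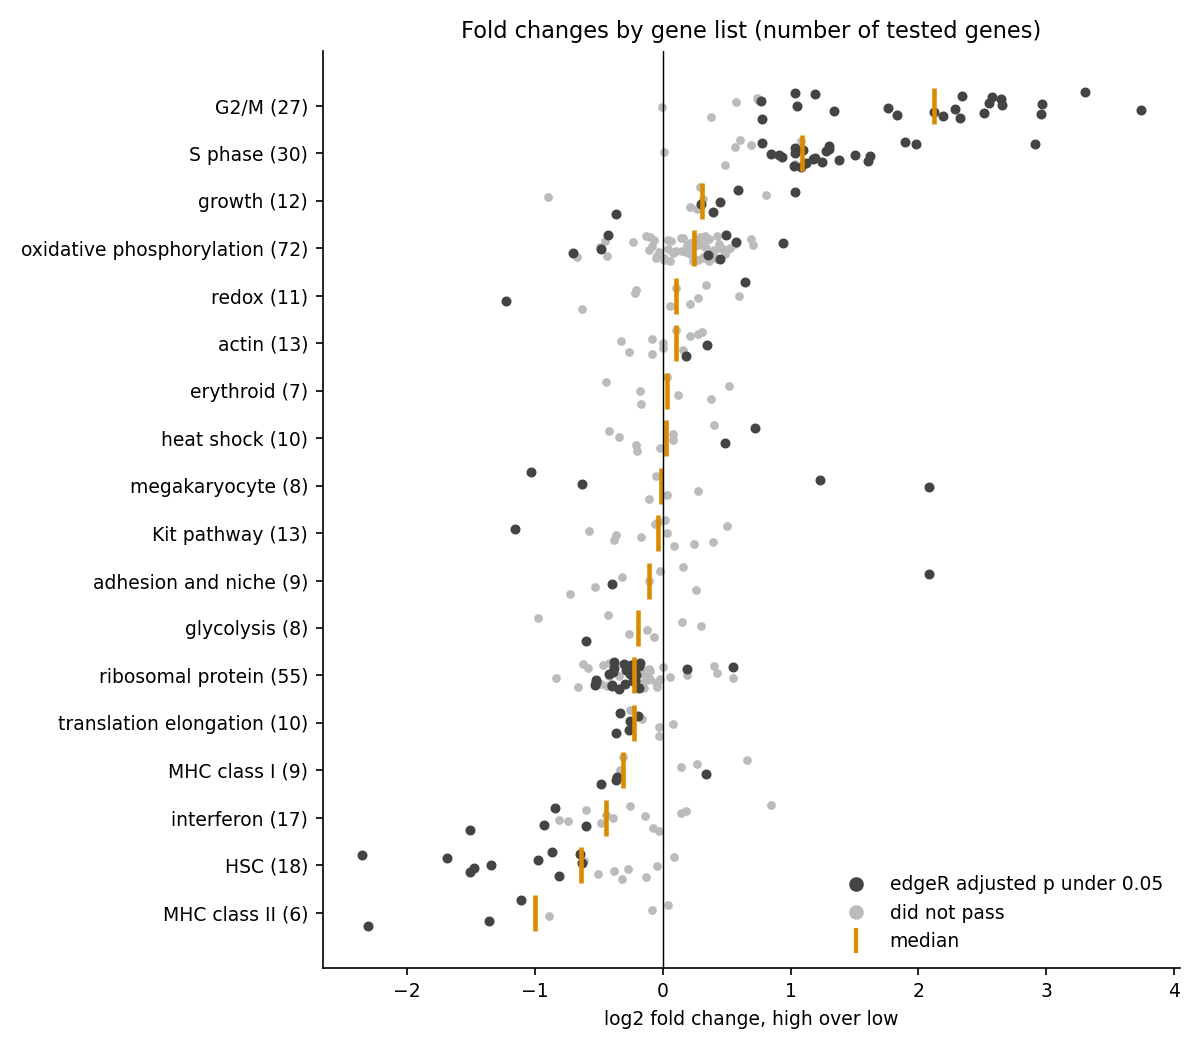
Log2 fold changes (high over low) of the tested genes in each list with at least 5 of them, with the number tested in brackets, dark points past the edgeR threshold and an orange bar at the median. G2/M and S phase genes lie to the right with medians of 2.13 and 1.09, and HSC and MHC class II genes to the left with medians of -0.64 and -1.0.

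Growth genes were higher in part. Of 12 tested, 5 rose and 1 fell, with a median of 0.31, and 3 to 5 rose when 1 plate was left out. The gene that fell was the D cyclin gene Ccnd2 (-0.36 ± 0.13). It lost its call without plate 2 (adjusted p = 0.11), plate 3 (0.22) or plate 4 (0.22). Ran, which drives transport into the nucleus, had 845, 973, 996 and 865 CPM in high cells, against 549, 486, 315 and 410 in low cells (1.03 ± 0.14). Its partner Ranbp1 averaged 685 ± 113 in high and 446 ± 110 in low cells (0.59 ± 0.15). The G1 kinase Cdk4 rose by 0.39 ± 0.12, and lost its call without plate 4 (adjusted p = 0.14) or plate 5 (0.12). Of 72 oxidative phosphorylation genes tested, 5 rose and 3 fell, with a median of 0.25, and their share called (11.1%) was that of all genes tested (11.0%). Among those that rose, Ndufc1 had 0.94 ± 0.27 and lost its call without plate 5 (adjusted p = 0.083). Cox7a2l, which joins respiratory complexes, fell to 599 ± 153 in high cells, against 941 ± 82.9 in low cells (-0.70 ± 0.12). Among 11 redox genes, the thioredoxin gene Txn1 rose by 0.65 ± 0.13 and Gstm1, a glutathione transferase, fell by 1.23 ± 0.16 on the log2 scale. Gstm1 had 394, 222, 325 and 205 CPM in high cells, against 970, 453, 585 and 603 in low cells, with no overlap.

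Ifitm1 was lower in high cells in every plate. It had 145, 1316, 1328 and 1096 CPM in high cells of plates 2 to 5, against 230, 2872, 3905 and 3800 in low cells. The sides overlapped only through plate 2, where both were low. The log2 fold change was -1.51 ± 0.09 (SE, adjusted p = 2.1e-54) with the plate as a block and -1.54 without plate 2. Without the block it was -1.51 with an adjusted p of 0.35. Ifitm3, its neighbour in the family, had 64.4, 1395, 1121 and 1145 CPM in high cells, against 115, 1771, 1711 and 1900 in low cells (-0.60 ± 0.10), and its adjusted p without the block was 0.81. The third family member tested, Ifitm2, had -0.08 and did not pass.

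A wider list of interferon-responsive genes was lower in part. Of 17 tested, 4 fell and 0 rose, with a median of -0.44, and Ifitm1 and Ifitm3 were 2 of the 4. Igtp, an interferon-induced GTPase gene, had 44.3 to 105 CPM in high cells, against 114 to 158 in low cells (-0.93 ± 0.33). It lost its call without plate 3 (adjusted p = 0.096), plate 4 (0.33) or plate 5 (0.11).

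The genes of classical MHC class II chains and their invariant chain had negative fold changes. Of 6 tested, 3 fell and 0 rose, with a median of -1.0, and 2 fell without plate 2 or without plate 5. H2-Ab1 (-0.89, adjusted p = 0.068) did not pass, nor did the peptide-loading genes H2-DMa (-0.09) and H2-DMb1 (0.04). Cd74, the invariant chain that guides class II molecules, had 153, 93.0, 44.3 and 156 CPM in high cells, against 549, 615, 551 and 466 in low cells. The highest high library held less than the lowest low one, and the log2 fold change was -2.30 ± 0.21 (adjusted p = 9.9e-24). H2-Aa, a class II alpha chain, had 169, 100, 103 and 149 CPM in high cells, against 383, 378, 259 and 284 in low cells (-1.36 ± 0.23). H2-Eb1, a beta chain, fell by 1.11 ± 0.38 on the log2 scale, lost its call without plate 2 (-0.73, adjusted p = 0.30) or plate 5 (-1.02, 0.22), and changed sign to 0.11 when readings were corrected for the Alexa Fluor 700 dye. Of the B cell markers, Cd79a and Ms4a1 gave 0 UMIs in high and in low cells, but Cd79b had 48.3, 64.4, 73.8 and 49.8 CPM in high cells, against 153, 54.0, 90.0 and 102 in low cells. Its log2 fold change of -0.76 ± 0.38 had the sign of the class II genes and did not pass (adjusted p = 0.21), and what it adds to them was not tested.

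MHC class I genes showed no single direction. Of 9 tested, 3 fell and 1 rose, with a median of -0.31. The class I heavy chains H2-K1 (-0.36 ± 0.09) and H2-D1 (-0.37 ± 0.10) fell. H2-Q6 rose by 0.34 ± 0.10, but lost its call without plate 2 (adjusted p = 0.062) or plate 4 (0.20), and reads of its near-identical neighbours may be split between them. The light chain B2m had -0.48 ± 0.17 with an adjusted p of 0.049, and passed in none of the 4 fits that left out a plate (0.054 to 0.24).

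HSC genes were lower in high cells in part. Of 18 tested of 28 listed, 10 fell and 0 rose, with a median of -0.64, and 8 to 10 fell when a plate was left out. The list holds Ifitm1, which the lists above also hold. Procr had 72.4, 57.2, 36.9 and 56.0 CPM in high cells, against 128, 173, 225 and 171 in low cells. The sides did not overlap, and the log2 fold change was -1.69 ± 0.33 (adjusted p = 1.3e-05). Being this low in high cells, Procr can pass the filter through other libraries alone, which partly sets its fall and lack of overlap. Pdzk1ip1, a membrane protein gene used to mark HSCs, had 595, 458, 531 and 442 in high cells, against 1021, 734, 912 and 1183 in low cells (-0.97 ± 0.13). Sult1a1, a sulfotransferase gene, had 0, 21.5, 44.3 and 31.1 in high cells, against 38.3, 86.4, 236 and 137 in low cells (-2.35 ± 0.45), with 1 low library below the highest high one.

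Transcription regulators of the HSC list split. Mllt3, which maintains HSC self-renewal, averaged 118 ± 48.9 in high and 297 ± 95.6 in low cells (-1.34 ± 0.24). Mecom had 72.4, 85.9, 66.4 and 56.0 in high cells, against 51.0, 216, 236 and 250 in low cells, so that plate 2 went the other way (-1.48 ± 0.31). Hlf averaged 259 ± 43.6 in high and 447 ± 129 in low cells (-0.81 ± 0.18), and lost its call without plate 3 (-0.62, adjusted p = 0.052). Mllt3, Mecom and Hlf lay outside the naming rule and were named after their values were seen. Meis1 had -0.04, Gata2 -0.13 and Lmo2 -0.27, and none of these passed.

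Txnip, which restrains glucose uptake and is high in resting HSCs, had 426, 766, 841 and 747 CPM in high cells, against 868, 1069, 1463 and 1547 in low cells. No high library reached a low one (-0.87 ± 0.11). Tmem176b, a membrane protein gene, averaged 889 ± 78.2 in high and 1359 ± 246 in low cells (-0.64 ± 0.10). Among 13 genes of the Kit pathway, 1 passed (7.69%, below the 11.0% of all genes): Pik3r1, a subunit of PI3 kinase, fell by 1.15 ± 0.29 on the log2 scale and lost its call without plate 3 (adjusted p = 0.059). Itsn1, an endocytic scaffold gene and among the 12 genes with the lowest fold changes, averaged 130 ± 76.5 in high and 361 ± 104 in low cells (-1.53 ± 0.23).

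Megakaryocyte genes went in both directions. Of 8 tested, 2 rose and 2 fell, with a median of -0.01. Itga2b, which encodes the integrin CD41, had 113, 100, 111 and 87.1 CPM in high cells, against 38.3, 21.6, 22.5 and 11.4 in low cells, without overlap (2.08 ± 0.51). A gene this low in low cells can pass the filter on low counts through the high libraries alone. The rise and the lack of overlap of Itga2b are thus partly set by the filter. The platelet factor gene Pf4 had 48.3, 150, 384 and 124 in high cells, against 76.6, 75.6, 78.8 and 56.9 in low cells. Its log2 fold change of 1.23 ± 0.33 rests on plate 4, without which it was 0.58 (adjusted p = 0.50). Vwf, the clotting factor of HSCs that lean towards platelets, averaged 67.1 ± 39.8 in high and 136 ± 41.5 in low cells (-1.03 ± 0.35). It lost its call without plate 2 (-0.85, adjusted p = 0.17) or plate 4 (-0.60, 0.43).

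Ribosomal protein genes were slightly lower in high cells. Of 55 tested, 23 fell and 2 rose, with a median of -0.23, and leaving out a plate gave 11 to 21 that fell (11 without plate 5). Rplp1, of the ribosome's stalk, had 11995, 9809, 10930 and 8733 CPM in high cells, against 15978, 12265, 12830 and 12856 in low cells (-0.42 ± 0.05). Rps14 had -0.39 ± 0.05 and Rps9 -0.38 ± 0.05. The list's summed level was 139530 to 155976 CPM in high and 165628 to 171250 in low libraries. These genes have many processed copies, so reads may be split. Of 10 elongation factor and related genes, 5 fell and 0 rose, among them Eef1a1 (-0.37 ± 0.06), with the same value without plate 2. Of 3 myeloid progenitor genes, 1 passed: Prtn3, a granule protease gene, averaged 673 ± 105 in high and 1009 ± 170 in low cells (-0.62 ± 0.12).

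The middle cells show at which end of the channel the levels parted. High against middle, 198 genes passed (5.60%), 112 higher (3.17%) and 86 lower (2.43%), and middle against low, 26 passed (0.735%), 11 higher (0.311%) and 15 lower (0.424%). The low libraries were the shallowest and each comparison shares libraries with high against low, so these counts are set side by side only. Hist1h1b averaged 141, 220, 304, 383 and 1165 CPM along quintiles of the channel (20% of a plate's cells each), lowest to highest. Most of its step lay at the top quintile. Mcm5 averaged 146, 247, 257, 378 and 426 along the same quintiles, in steps spread over the channel. Cd74 averaged 546, 299, 200, 165 and 111, with its largest step at the bottom. Ifitm1 averaged 2702, 2599, 2058, 1671 and 971.

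**Figure D3:**
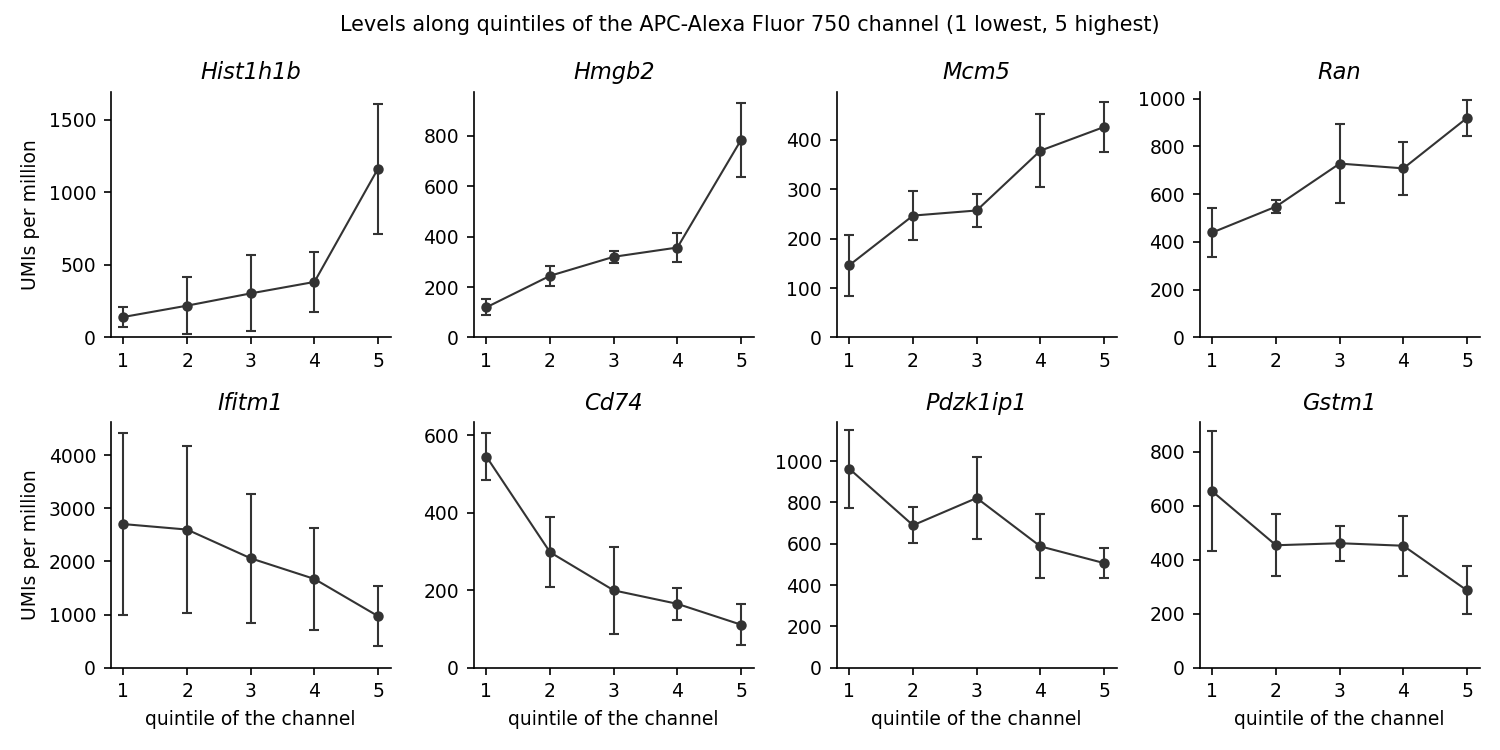
Mean level in CPM (± SD over 4 plates) of 8 genes in each quintile of the APC-Alexa Fluor 750 channel within plates, from 1 (lowest) to 5 (highest). Hist1h1b and Hmgb2 step up mainly at the top quintile, Mcm5 and Ran along the channel, and Cd74 steps down mainly between the lowest and the next quintile (546 and 299).

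Other recorded channels moved with the dye. As a mean percentile within the plate, CFP was 66.3 ± 2.82 in high and 38.9 ± 3.16 in low cells (SD, n = 4 plates). PE-Cy7 was 64.9 ± 2.13 in high and 35.3 ± 1.99 in low cells, and DAPI, a dye that marks dead cells, was 64.1 ± 3.71 in high and 38.5 ± 3.00 in low cells. Alexa Fluor 700 went the other way, at 33.6 ± 1.52 in high and 67.9 ± 2.60 in low cells. Side scatter area was 61.4 ± 1.16 in high and 45.2 ± 3.76 in low cells. Each of these differences had 1 direction in all 4 plates, with an exact sign-flip permutation p of 0.13, the smallest possible (0.159 adjusted over 14 channels). Forward scatter area, related to cell size, was 48.7 ± 3.88 in high and 47.0 ± 0.896 in low cells, a difference of -3.37 to 5.59 over plates. Forward scatter width was 61.4 ± 2.96 in high and 44.4 ± 2.35 in low cells, higher in high cells in 4 of 4 plates, and height was 44.0 ± 3.32 in high and 48.8 ± 2.09 in low cells, lower in 4 of 4 (p = 0.13 by the same exact test, 0.159 adjusted). The rank correlation with the dye, as a mean over 4 plates of cells that share libraries, was -0.43 for Alexa Fluor 700, 0.37 for PE-Cy7 and 0.32 for CFP. What spill between dyes adds was not tested.

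The sort record gives each cell a whole number, named map, whose meaning is not stated. The group numbered 9 held 30.9 ± 11.3% of high and 5.29 ± 4.21% of low cells (SD, n = 4 plates). The group numbered 10 held 8.07 ± 1.35% of high and 1.76 ± 2.67% of low cells. The group numbered 4 held 12.6 ± 1.05% of high and 33.03 ± 5.91% of low cells. Groups 9, 10 and 4 each differed in 1 direction in 4 of 4 plates, and group 8 was larger among high cells in 3 of 4 (22.1 ± 10.6% of high and 6.35 ± 1.96% of low cells). The exact permutation p of groups 9, 10 and 4 was 0.13, and 0.225 adjusted over 9 groups. With cells thinned to 500 UMIs, 2.39% of UMIs in group 9 and 2.77% in group 10 came from the S phase and G2/M lists, against 0.795% in group 4.

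**Figure D4:**
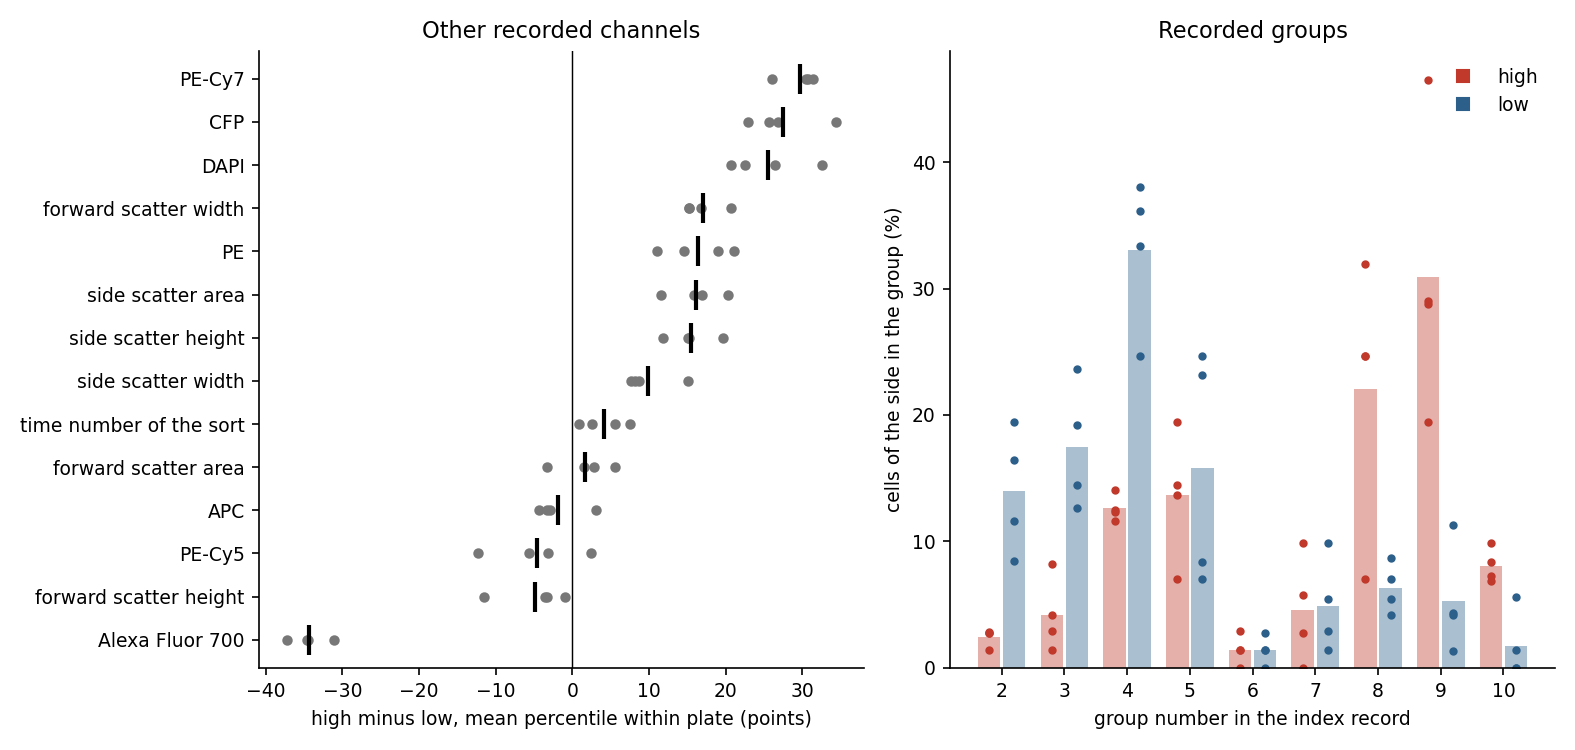
Left, high minus low difference in mean percentile within the plate for 14 recorded channels, with 1 point per plate and a bar at the mean. Right, percent of high (red, left) and low (blue, right) cells in each recorded group, with bars at the mean of 4 plates and a point per plate, where groups 9 and 10 hold more of the high and groups 2, 3 and 4 more of the low cells.

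The comparison was repeated with readings corrected for some of these measures, PE-Cy7 and DAPI not among them. With readings corrected for CFP, 185 genes passed, 88 higher and 97 lower in high cells, 171 of them among the 390. Cd74 then had -1.78, Ifitm1 -1.24, Procr -1.90, Hist1h1b 2.84 and Ube2c 3.58, all past the threshold. With readings corrected for Alexa Fluor 700, 192 passed, 111 higher and 81 lower. Cd74 had -1.003 and Ifitm1 -1.14 there, while Procr (-0.80, adjusted p = 0.19) and H2-Aa (-0.59, 0.13) did not pass. With readings corrected for side scatter, 310 genes passed.

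Without the 20% of each plate's cells that held the most S phase and G2/M UMIs, 83 of 2076 genes tested passed, 34 higher and 49 lower, and 78 of the 83 were among the 390. There Ifitm1 had -1.12, Cd74 -1.45, Procr -1.55, H2-Aa -0.94 and Gstm1 -0.95, and all of them passed. Hist1h1b had 1.81, Hmgb2 1.60 and Mcm5 1.39, which passed too, while Top2a (0.88, adjusted p = 0.30) and Tuba1b (0.33, 0.093) did not. Of 10 G2/M list genes tested in this setting 1 rose, of 18 S phase genes 8 rose, and of 15 HSC genes 6 fell. The cells left out were picked by their counts of the listed cell cycle genes, which were then tested again. A weaker rise of those genes, and fewer of them tested, is thus partly built into this setting.

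With sides chosen within each recorded group, so that high and low cells had the same mix of groups, 35 of 2904 genes passed, 25 higher and 10 lower. Ifitm1 had -0.79 and Cd74 -1.46, and both passed. Ube2c had 2.88, Top2a 1.25 and Hist1h1b 0.93, which passed as well. Of 17 HSC list genes tested 2 fell, with a median of -0.36, and Procr (-0.83, adjusted p = 0.25) and Pdzk1ip1 (-0.36, 0.22) did not pass. Of 26 S phase genes 0 passed, with a median of 0.29, and of 23 G2/M genes 9 rose.

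**Figure D5:**
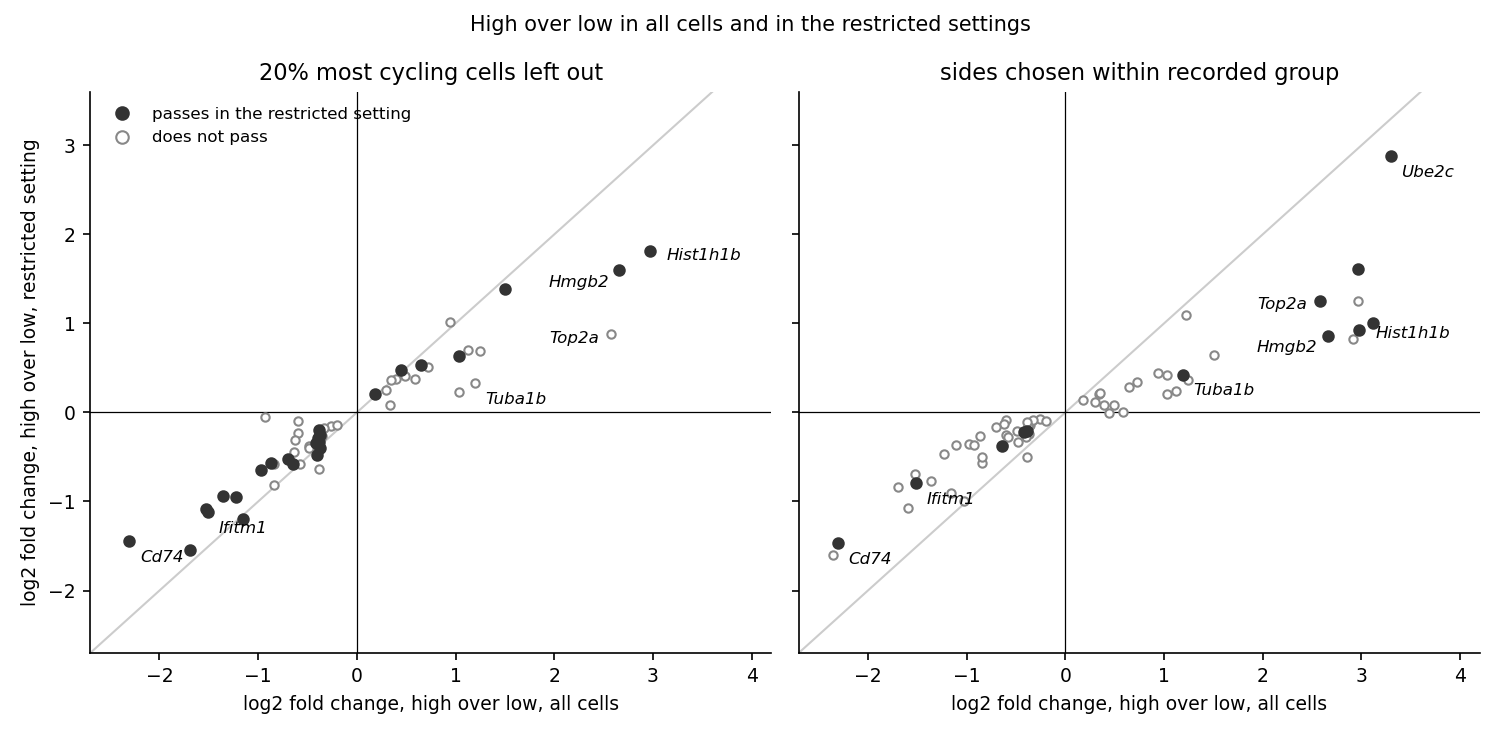
Log2 fold changes (high over low) of the named genes in all cells (horizontal) against those without the 20% most cycling cells of each plate (left) and with sides chosen within each recorded group (right), with filled points past the edgeR threshold and a grey line of equal values. Most points lie nearer to 0 than the line on both sides, and Cd74 and Ifitm1 stay past the threshold in both settings.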

How the data were processed

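The authors deposited a table of raw UMI counts with 27297 gene entries and 1536 wells, of which 1430 have an index-sort record. Recorded wells held 511 to 6026 UMIs, and the 106 others, with up to 502, were not used. Per the submitters' processing notes, bcl2fastq 2.15.0.4, STAR, cutadapt, Bismark 0.19.0, featureCounts, DESeq2 and the builds mm9 and mm10 served somewhere in the series, but which step made UMI counts from reads is not stated. The deposited APC-Alexa Fluor 750 readings are the log10 of whole channel numbers (tolerance 0.001), per the values, and forward scatter area is a linear intensity in the deposited record. The other deposited channels enter as a score, by their order in each plate. PE, PE-Cy5, PE-Cy7 and DAPI hold spreadsheet errors in 47, 14, 77 and 70 wells, left out for that channel. The bulk RNA-seq and bisulphite samples were not analysed here.

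UMIs were summed per plate and side and tested with edgeR 4.0.16 in R 4.3.3 (filterByExpr, TMM, quasi-likelihood F test, sort plate as a block, 3 sides in 1 fit, Benjamini-Hochberg threshold 0.05). Residual degrees of freedom were 6 and prior degrees of freedom 1014, so very small p-values owe most of their precision to information shared among genes. Levels are in CPM, a gene's UMIs per 1000000 UMIs of a library. A plate's sides hold cells of the same sort plate, which pairs them: deviations from the side means correlated at 0.179 to 0.597 in the 4 same-plate pairs and at -0.33 to 0.142 in the 12 others. Per-plate values were tested by exact permutation of signs, two-sided, whose smallest p is 0.13, so it cannot reach 0.05. In simulated data for high against low with 3381 genes tested, 98 of 98 genes with a log2 change of 2, 48 of 98 with a change of 1 and 8 of 3185 unchanged genes were called. The simulation drew genes independently and gave each the same spread between libraries beyond counting error. Its rates hold for that setting only. No doublet caller was run, and whether some wells received more than 1 cell was not tested. Intervals cover counting error only.

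Named genes are the markers Ifitm1 and Ly6a, the gate's genes, the 12 with the highest and the 12 with the lowest fold change among called genes of at least 50 CPM with 1 sign in all plates, and at most 4 called members of each list by p. The members, gene lists and tests were chosen with earlier results of these data known. The alternatives were other shares of cells at each end (10% and 33%), thinning, a minimum of 1000 UMIs, readings corrected for other channels or for UMIs, sides within recorded groups, cycling cells left out, another scaling, no filter, no block, high and low sides only, DESeq2 1.42.0 and each plate left out. The correction for Alexa Fluor 700, side scatter or UMIs per cell and the reversed order of ties were chosen after seeing the data.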

Additional observations from a re-analysis of the deposited data

Results flagged for a closer look

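Of 212 groups of 4 plates looked at, 12 held a plate far from the other 3 by Dixon's test at the 95% level, and chance alone flags about 1 in 20. In plate 2, high cells had 96.5 CPM of Fam64a and 829 of Prtn3, and low cells had 1263 of Prtn3, 115 of Ifitm3, 15978 of Rplp1 and 11180 of Rps9. In plate 3, high cells had 143 CPM of Dusp2, the phosphatase gene. In plate 4, low cells had 135 of Clip3, and in plate 5, low cells had 56.9 of Pf4.

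Among measures of cells, the S and G2/M share at 500 UMIs was 0.901% in low cells of plate 3. The Alexa Fluor 700 percentile was 64.1 in low cells of plate 5. The group numbered 2 held 1.45% of the high cells of plate 3. The 106 wells without an index record, which no comparison used, held a median of 224 UMIs.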

How the results depend on the processing

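High against low, 390 genes passed, and leaving out 1 plate gave 242 to 310. The count was 234 with 10% of cells at each end, 71 thinned to 500 UMIs per cell (715 genes tested), 185 corrected for CFP, 192 for Alexa Fluor 700, 228 for UMIs per cell, 35 within recorded groups, 83 without cycling cells and 188 with DESeq2. Without a filter on low counts 370 passed, and the split moved to 274 higher and 96 lower, from 200 and 190. High against middle, where 198 passed, the counts were 122 with 33% at each end, 23 thinned, 57 for CFP, 95 for Alexa Fluor 700, 70 for UMIs, 6 within groups, 20 without cycling cells and 72 with DESeq2, and 126 to 178 with a plate left out. Middle against low, where 26 passed, they were 16 with 10%, 5 thinned, 7 for Alexa Fluor 700, 5 within groups, 1 without cycling cells and 2 with DESeq2, and 4 to 26 with a plate left out.

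Without the replicate block the counts were 115, 37 and 0, the last with 170 genes at an unadjusted p under 0.05, by edgeR, beside the 2 of DESeq2. Fewer genes were tested in the thinned, 10% and cycling settings, and the other causes were not tested.

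Of 74 named genes called, 13 were called in every alternative that tested them, and 2 reversed in one: H2-Eb1 to 0.11 for Alexa Fluor 700 and Atp5g3 to -0.0072 within groups. Among differences that were small at first, forward scatter area turned to -0.815 with 33% and APC to 2.48 with 10%. With a plate left out, group 5 ranged over -6.55 to 0.805 percentage points (0.0507 and 0.805 without plates 3 and 5), group 6 over -0.444 to 0.953 and group 7 over -1.38 to 0.503. Group 6 turned to -2.08 with 10%, and group 7 to 0.754 with 10% and 0.905 with 33%. The low libraries, the shallowest, limit what weakly expressed genes can show, and a simulated log2 change of 1 was called in 49% of genes.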

Other observations

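In several groups of genes that the comparison above does not describe, a few members passed, beside 11.0% of all genes tested. Of 10 heat shock genes tested, 2 rose (20%), with a median of 0.03. The mitochondrial chaperonin gene Hspd1 averaged 243 ± 18 CPM in high and 145 ± 55.4 in low cells (0.72 ± 0.25), and lost its call without plate 3 (adjusted p = 0.33) or plate 5 (0.13). Of 13 actin genes, 2 rose (15.4%): Actb, the cytoplasmic actin, by 0.18 ± 0.05 and the actin-severing gene Cfl1 by 0.35 ± 0.11, which lost its call without plate 3 (adjusted p = 0.093) or plate 4 (0.30). Of 8 glycolysis genes, 1 fell (12.5%): Aldoa, an aldolase, averaged 659 ± 201 in high and 976 ± 289 in low cells (-0.60 ± 0.12).

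Of 3 multipotent progenitor genes tested, Cd27, a costimulatory receptor gene, averaged 237 ± 72.2 in high and 344 ± 80.9 in low cells (-0.58 ± 0.20), and passed in none of the 4 fits that left out a plate (adjusted p of 0.06 to 0.19). Cd34, which marks HSCs that have begun to differentiate, had a log2 fold change of 0.71 ± 0.30 and did not pass (adjusted p = 0.12). Of 9 adhesion and niche genes, Itga2b rose and the tetraspanin gene Cd81 fell (-0.40 ± 0.13), which lost its call without plate 4 (adjusted p = 0.38). Of 4 retinoic acid genes and 3 endothelial genes tested, 0 passed in high against low by edgeR.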
